A study of Mus musculus with 19 samples.

Results

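The 8 libraries described here came from the brains of mice that made GFP and no dipeptide repeat protein. They were chosen by their labels alone, as all libraries of the groups PR-control (4 mice, 3 female and 1 male) and GR-control (4 mice, 2 female and 2 male), out of 19 libraries in the series. All of these mice were C57BL/6, 3 months old, and had received an adeno-associated virus (AAV1) carrying GFP alone into the cerebral ventricles as newborn pups. The remaining 11 mice had received GFP joined to 50 proline-arginine units (PR50, 7 mice, 4 female and 3 male) or to 100 glycine-arginine units (GR100, 4 mice, 3 female and 1 male), each collected in the same harvest as its own GFP controls. The PR-control and GR-control mice therefore share genotype, vector, age and tissue and differ by harvest and in sex make-up. Their comparison shows how far read counts of hippocampus and cortex homogenate differed between the groups with no repeat protein made. The layout of the gene tables also differs between most libraries of the groups, so harvest and layout cannot be fully told apart. The labels give neither the promoter in the vector nor the cells it reached. Beyond naming the libraries as separate samples of a group, they say nothing of how replicates were made, so the p-values below measure only the spread between these samples.

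Cortex and hippocampus hold glutamatergic projection neurons, GABAergic interneurons, astrocytes, oligodendrocytes, microglia and vessels. The forebrain ventricles carry the choroid plexus, an epithelium that secretes cerebrospinal fluid and makes very large amounts of transthyretin, so a scrap of it in a homogenate brings in a recognisable set of transcripts. The olfactory bulb, attached to the front of the cortex, has mitral and tufted neurons marked by the T-box factors Tbx21 and Eomes and dopaminergic interneurons marked by tyrosine hydroxylase. A homogenate also contains nuclei, with unspliced transcripts and nuclear noncoding RNAs.

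The libraries held 26934239 to 46194065 reads on genes, and 7716937 to 12701931 on repeat subfamilies. CPM values, which are read counts relative to library size, are scaled by the trimmed mean of M-values (TMM) over the 8 libraries, and TPM values (transcript abundance per exonic length) serve to compare genes with each other. PR-control replicates 1 and 4 stood apart from the other libraries: on the first principal component, which held 59.2% of the variance, they scored 27.3 and 39.2, and the other 6 libraries scored between -16.6 and -5.55. Long transcripts were lower relative to short ones in these libraries, with a log2 difference between the longest and shortest quintiles of -0.32 and -0.43, against 0.02 to 0.20 in the others. The GR-control libraries resembled each other more (Spearman's rho across genes 0.993 to 0.997) than the PR-control libraries did (0.977 to 0.997). Counts of called genes in lists, families, biotypes and regions are therefore given with PR-control replicates 1 and 4 and, where the count moved by more than 1.5 times, also without them. The gene tables also differed in layout, and among the GR-controls only replicate 2 has the same 4-column layout as the PR-controls. Xist, transcribed from the inactive X chromosome, and the Y-linked Ddx3y matched the sex labels: the 5 female libraries had 596 to 1027 CPM of Xist and the 3 male libraries 46.0 to 67.0 CPM of Ddx3y.

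The most abundant messenger RNAs per length were those of the mitochondrial genome, led by mt-Co1, a subunit of cytochrome c oxidase, at a mean of 33616 TPM over the 8 controls (range 28443 to 37459). Among nuclear genes the highest levels belonged to Calm2, which encodes the calcium sensor calmodulin (3534 TPM), the ribosomal protein gene Rplp1 (3173 TPM) and Nrgn, the calmodulin-binding neurogranin of dendritic spines (2970 TPM). Apoe, the lipid carrier made by astrocytes, stood at 2121 TPM. Projection neurons were marked by Camk2a (1166 TPM) and the vesicular glutamate transporter Slc17a7 (734 TPM). Interneurons were marked by Sst at 935 TPM, oligodendrocytes by Mbp at 1045 TPM, astrocytes by Aldoc at 876 TPM and microglia by C1qb at 146 TPM. Each of these classes was present in every library. Both labelled regions were represented, with Wfs1 of field CA1 at 106 TPM, Prox1 of the dentate gyrus at 10.3 TPM, Cux2 of upper cortical layers at 27.7 TPM and Bcl11b of deep layers at 52.5 TPM. Transcripts of the striatum, which lies under the cortex, were present too, with Penk at 521 TPM, and so were those of red blood cells, with Hbb-bs at 185 TPM. Cd3e, a marker of T lymphocytes, was near 0 at a mean of 0.0786 TPM.

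Between the harvests, 131 of 18086 genes tested (0.724%) were called, which means a Benjamini-Hochberg adjusted p under 0.05 from edgeR's quasi-likelihood test in a model that also held sex. Of these, 8 (0.0442% of genes tested) were higher in GR-control and 123 (0.68%) were lower, while the median log2 fold change over all genes was -0.01. The 8 higher genes were Ttr, Kl, Shank3, Olfml1, Enpp2, Fa2h, Sstr2 and Adra2c, all protein-coding. The lower genes included 66 protein-coding genes, among them collagens, olfactory bulb markers and a run of splicing factors, and 31 TEC models, which are annotated transcripts still to be experimentally checked. In 128 of the 131 genes the 4 libraries of each harvest did not overlap, against 15.9% of all genes tested. An unadjusted p under 0.05 was found for 3435 genes (19%), and the smallest adjusted p was 0.0190. The absolute log2 fold changes ranged from 0.39 to 4.28 with a median of 0.89, and 58 lower and 2 higher genes differed by more than 2-fold. Genes called lower had a median GC content of 40.8% in their transcripts, against 49.4% for all genes tested. These sets differ in biotype, and among protein-coding genes alone the medians were 44.5% for those called lower and 49.9% for those tested. The number of calls depended on the libraries. Without PR-control replicates 1 and 4 it was 1697 of 18787 genes tested (601 higher, 1096 lower, all 131 included). That fit sets PR-control replicates 2 and 3 against the 4 GR-controls. Its share of calls is far larger, so most lists gain calls in it. When 1 library was left out, the number lay between 0 and 1665. All 131 genes kept their direction in each of these fits. The fits reuse libraries that chose these genes, so this is no independent support.

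**Figure D1:**
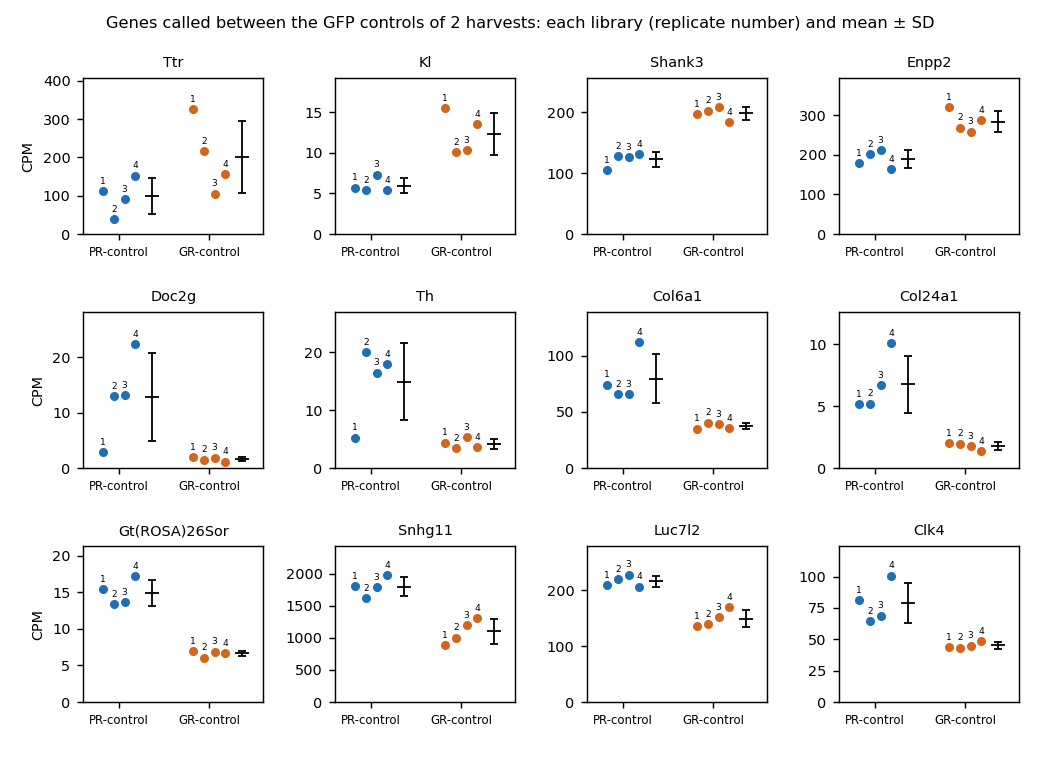
CPM of 12 genes called between the harvests, with 1 point per library labelled by its replicate number (blue PR-control, orange GR-control) and the mean ± SD of each group of 4 beside the points. The groups were separate in 10 of the panels, while Ttr and Th overlapped.

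Among the higher genes, Ttr had the largest change. It encodes transthyretin, the thyroid hormone and retinol carrier of cerebrospinal fluid. Ttr stood at 113, 39.7, 90.8 and 152 CPM in PR-control replicates 1 to 4 and at 325, 217, 106 and 156 CPM in GR-control replicates 1 to 4. The ranges overlapped in raw levels, with means of 98.8 and 201 CPM. Among females the GR-controls (325 and 217) lay above the PR-controls (90.8 to 152), and among males GR-control replicates 3 and 4 (106 and 156) lay above PR-control replicate 2 (39.7). Replicate 2 is the only male PR-control and had the lowest level of all, so the male comparison rests on 1 library. With sex in the model Ttr rose 2.59-fold (log2 fold change 1.37, SE 0.22, adjusted p = 0.0397). Kl encodes klotho, a co-receptor for fibroblast growth factor 23 that the choroid plexus also makes. Its levels were 5.71, 5.42, 7.31 and 5.44 CPM in PR-control and 15.5, 10.1, 10.4 and 13.5 CPM in GR-control, with no overlap, and it rose 2.11-fold (log2 fold change 1.08, SE 0.17, adjusted p = 0.0397).

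Of the 14 choroid plexus markers tested, 2 rose and 13 had a log2 fold change above 0, with a median of 1.05. Tmem72, Ttr, F5, Cldn2, Slc4a5, Kl and Folr1 were the highest, from 1.61 for Tmem72 to 1.07 for Folr1, and the 5 of them besides Ttr and Kl had adjusted p between 0.0573 and 0.0856. Tmem72, a membrane protein gene of this epithelium, had 0.946, 0.908, 0.988 and 0.846 CPM in PR-control and 4.84, 2.00, 1.58 and 2.34 CPM in GR-control, so that every GR-control library was above every PR-control library. Aqp1, the water channel, was the exception at -0.56 (adjusted p = 0.420). The summed level of the 14 markers ran from 141 to 412 TPM in PR-control and from 349 to 904 TPM in GR-control, and Ttr made up most of it. Without PR-control replicates 1 and 4, 8 of the 14 were called higher and 1 lower, with a median of 1.01. In a homogenate, more choroid plexus tissue and more RNA per choroid plexus cell cannot be told apart.

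The other 6 higher genes changed by less than 2-fold. Shank3 encodes a scaffold of the postsynaptic density of excitatory synapses. It had 105, 128, 127 and 132 CPM in PR-control and 198, 203, 209 and 185 CPM in GR-control, a clear separation, and rose 1.61-fold (log2 fold change 0.69, SE 0.09, adjusted p = 0.0249), the smallest adjusted p among the higher genes. Enpp2 encodes autotaxin, a lysophospholipase D found in choroid plexus and oligodendrocytes. It went from 179, 201, 212 and 163 CPM to 320, 268, 258 and 287 CPM, again without overlap (log2 fold change 0.59, SE 0.11). Fa2h, which hydroxylates the fatty acids of myelin galactolipids, rose by 0.48 (SE 0.09), from 26.7 ± 2.41 to 38.8 ± 4.62 CPM (SD, n = 4 each). None of the 12 oligodendrocyte and myelin markers passed, and their median was 0.03, but 4 were called higher without PR-control replicates 1 and 4. Sstr2, a somatostatin receptor, rose by 0.43 (SE 0.08), Adra2c, the alpha-2C adrenergic receptor, by 0.42 (SE 0.08), and Olfml1, of the olfactomedin-like genes, by 0.65 (SE 0.10). On GRCm38, Shank3 (ENSMUSG00000022623) lies on chromosome 15 from 89499623 to 89560261, Enpp2 (ENSMUSG00000022425) on chromosome 15 from 54838901 to 54952892, and Kl (ENSMUSG00000058488) on chromosome 5 from 150952607 to 150993817.

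Olfactory bulb markers were lower in GR-control. Of 11 genes in the list of olfactory bulb and neuroblast markers, 2 fell, 9 had a log2 fold change below 0, and the median was -1.64. Doc2g, a C2-domain protein gene used as a marker of bulb projection neurons, had 2.87, 12.9, 13.1 and 22.4 CPM in PR-control and 1.96, 1.496, 1.88 and 1.14 CPM in GR-control. PR-control replicate 1 was close to the GR-controls, and the other 3 PR-controls were far above. Doc2g was 7.80-fold lower in GR-control (log2 fold change -2.96, SE 0.54, adjusted p = 0.0484). Because 63.5% of its exonic bases also belong to another annotated gene and the counts keep no strand, reads on those bases may have been left out as ambiguous. Ambiguous reads made up 7.63% to 8.56% of reads in the 5 control libraries that report them. Th, the rate-limiting enzyme of catecholamine synthesis, stood at 5.25, 20.05, 16.5 and 17.95 CPM in PR-control and 4.40, 3.41, 5.36 and 3.66 CPM in GR-control. Here PR-control replicate 1 lay inside the GR-control range, and Th fell by 1.91 on the log2 scale (SE 0.35, adjusted p = 0.0484).

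The same library split the rest of the list. Tbx21 had 0.326, 3.29, 2.96 and 3.35 CPM in PR-control and at most 0.40 CPM in GR-control, with a log2 fold change of -3.19 (adjusted p = 0.0613). Eomes had 0.424 CPM in PR-control replicate 1 against 5.85 to 8.53 CPM in the other PR-controls, and 0.525 to 1.02 CPM in GR-control (-3.08, adjusted p = 0.0794). Cdhr1, a cadherin-related gene of mitral cells, showed 9.03 CPM in PR-control replicate 1, 38.6 to 49.3 CPM in the other PR-controls and 6.91 to 12.1 CPM in GR-control. So 3 PR-control libraries carried bulb transcripts that the fourth and all GR-controls had at much lower levels. Summed over the list, levels ran from 44.1 to 157 TPM in PR-control and from 43.4 to 53.7 TPM in GR-control. The proliferation genes of the list went the other way without passing the test, Mki67 at 0.65 (adjusted p = 0.0803) and Top2a at 0.63 (adjusted p = 0.115). Without PR-control replicates 1 and 4, 9 of the 11 genes were called lower and 1 higher. Among 8 hypothalamus markers 1 fell, Trh, which encodes thyrotropin-releasing hormone and had 10.5 to 12.6 CPM in PR-control and 4.49 to 9.87 CPM in GR-control (-0.89, SE 0.16, adjusted p = 0.0484).

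Collagen genes formed another lower group. Of the 15 collagen and extracellular matrix genes 3 fell, 12 were below 0, and the median was -0.43. Over all 43 collagen chain genes tested, a family picked after its values were seen, 5 fell, none rose and 37 were below 0, with a median of -0.39. Col24a1, a fibrillar-type chain expressed in cortical neurons in mouse, had 5.15, 5.20, 6.69 and 10.1 CPM in PR-control and 2.00, 1.97, 1.77 and 1.35 CPM in GR-control. No value overlapped, and Col24a1 was 3.53-fold lower (log2 fold change -1.82, SE 0.22, adjusted p = 0.0249). Col6a1, a chain of the beaded-filament collagen VI, had 74.3, 66.0, 66.0 and 112 CPM in PR-control and 35.0, 40.4, 39.2 and 35.6 CPM in GR-control (log2 fold change -1.04, SE 0.17). Col11a1, a minor fibrillar chain, fell by 1.25 (SE 0.20), Col23a1, a transmembrane collagen, by 0.59 (SE 0.10), and Col4a1, of the vascular basement membrane, by 0.43 (SE 0.07). Without PR-control replicates 1 and 4, 12 collagen chains were called lower and 1 higher with a median of -0.08, and 6 of the 15 listed genes were called lower. None of the 10 leptomeninges and fibroblast markers and none of the 12 endothelial markers passed, with medians of -0.10 and -0.07, although 1 endothelial marker was called higher and 2 lower without those libraries. That fit called 1697 of all 18787 genes tested, 601 higher and 1096 lower. Col24a1 (ENSMUSG00000028197) lies on chromosome 3 from 145292472 to 145552011 and Col6a1 (ENSMUSG00000001119) on chromosome 10 from 76708792 to 76726168 on GRCm38.

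Several other protein-coding genes fell by more than 2-fold. Jchain, the joining chain of secreted immunoglobulins made by plasma cells, had 2.15, 7.24, 2.24 and 2.54 CPM in PR-control and 0.364, 0.893, 0.854 and 0.673 CPM in GR-control. It was 5.51-fold lower (log2 fold change -2.46, SE 0.32, adjusted p = 0.0249), and PR-control replicate 2 was highest. Dnah11, a dynein heavy chain of motile cilia, fell by 1.69 (SE 0.31) and was the only 1 of 9 ependymal markers to pass. Without PR-control replicates 1 and 4, 1 of the 9 rose and 1 fell, in a fit that called 1697 of all 18787 genes tested. Pla2g3, a secreted phospholipase A2 gene, fell by 1.27 (SE 0.19), and Slc39a2, a zinc transporter gene, by 1.25 (SE 0.22). Ikzf5, an Ikaros-family zinc finger gene, fell by 1.18 (SE 0.19), with 84.5% of its exonic bases shared with another gene. The mitochondrial mt-Atp8, a subunit of ATP synthase whose gene overlaps mt-Atp6, fell by 1.88 (SE 0.31) at 0.552 to 0.752 CPM in PR-control and 0.117 to 0.263 CPM in GR-control. Reads on that overlap may have been left out as ambiguous, so these values may not give its level. None of the other 14 mitochondrially encoded genes tested passed. Without PR-control replicates 1 and 4, 7 of the 15 were called higher and 1 lower, and the median went from 0.12 to 0.30.

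Other protein-coding genes among those with the smallest adjusted p changed by about 2-fold or less. Kctd12, an auxiliary subunit of GABA-B receptors, had 42.8, 47.2, 43.9 and 50.0 CPM in PR-control and 28.9, 25.8, 28.6 and 27.1 CPM in GR-control (log2 fold change -0.74, SE 0.08, adjusted p = 0.0249), and 64.2% of its exonic bases are shared with another gene. Dusp11, an RNA 5'-phosphatase, had 77.6, 82.9, 85.3 and 80.6 CPM in PR-control and 57.0, 55.7, 53.0 and 58.1 CPM in GR-control. These groups were far apart for their spread, and Dusp11 fell by 0.54 (SE 0.07, adjusted p = 0.0249). Igip (-0.60), the serine protease gene Prss23 (-0.80), the zinc finger gene Rreb1 (-0.78) and Dcdc2b (-1.02), of the doublecortin-domain genes, belonged to the same set.

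Genes of pre-mRNA splicing made up a further part of the lower set; these families were picked after the called genes were seen. Luc7l2, which works with the U1 particle at the 5' splice site, had 210, 220, 228 and 207 CPM in PR-control and 136, 140, 152 and 170 CPM in GR-control. Its groups did not overlap, and it fell by 0.57 (SE 0.08, adjusted p = 0.0278), with 18.9% of its exonic bases shared with another gene. Snrnp70, the U1 70K protein, fell by 0.64 (SE 0.11), from 384, 319, 325 and 403 CPM to 209, 221, 248 and 243 CPM, and was the only 1 of 19 spliceosomal snRNP protein genes to pass. Among 4 CDC-like kinases, which phosphorylate SR proteins, Clk1 and Clk4 fell, and all 4 were below 0. Clk4 had 81.0, 64.6, 68.9 and 101 CPM in PR-control and 43.5, 43.4, 45.0 and 48.9 CPM in GR-control (log2 fold change -0.77, SE 0.14, adjusted p = 0.0477), and Clk1 also stood at -0.77 (SE 0.13). The kinase Clk2 stood at -0.35 without passing (adjusted p = 0.0903).

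Of 11 SR protein genes, which bind exonic enhancers, 2 fell, Srsf11 (-0.63, SE 0.10) and Srsf1 (-0.43, SE 0.08), 10 were below 0, and the median was -0.30. Srsf11 had 191, 186, 194 and 217 CPM in PR-control and 112, 119, 146 and 149 CPM in GR-control. The related factors Tra2a, Tia1, Arglu1 and Srek1 fell by 0.50 to 0.61. Of 13 PRPF genes, Prpf38b and Prpf39 fell by 0.52 and 0.56, but the median was 0.01. None of 20 hnRNP protein genes passed, against 0.724% of all genes tested, and their median was -0.08. With PR-control replicates 1 and 4 left out, 8 of the 11 SR protein genes, 3 of the 4 CDC-like kinases and 5 of the 20 hnRNP genes were called lower and none higher. Of all 18787 genes tested in that fit, 1096 were called lower and 601 higher. Differences between these families were not tested.

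**Figure D2:**
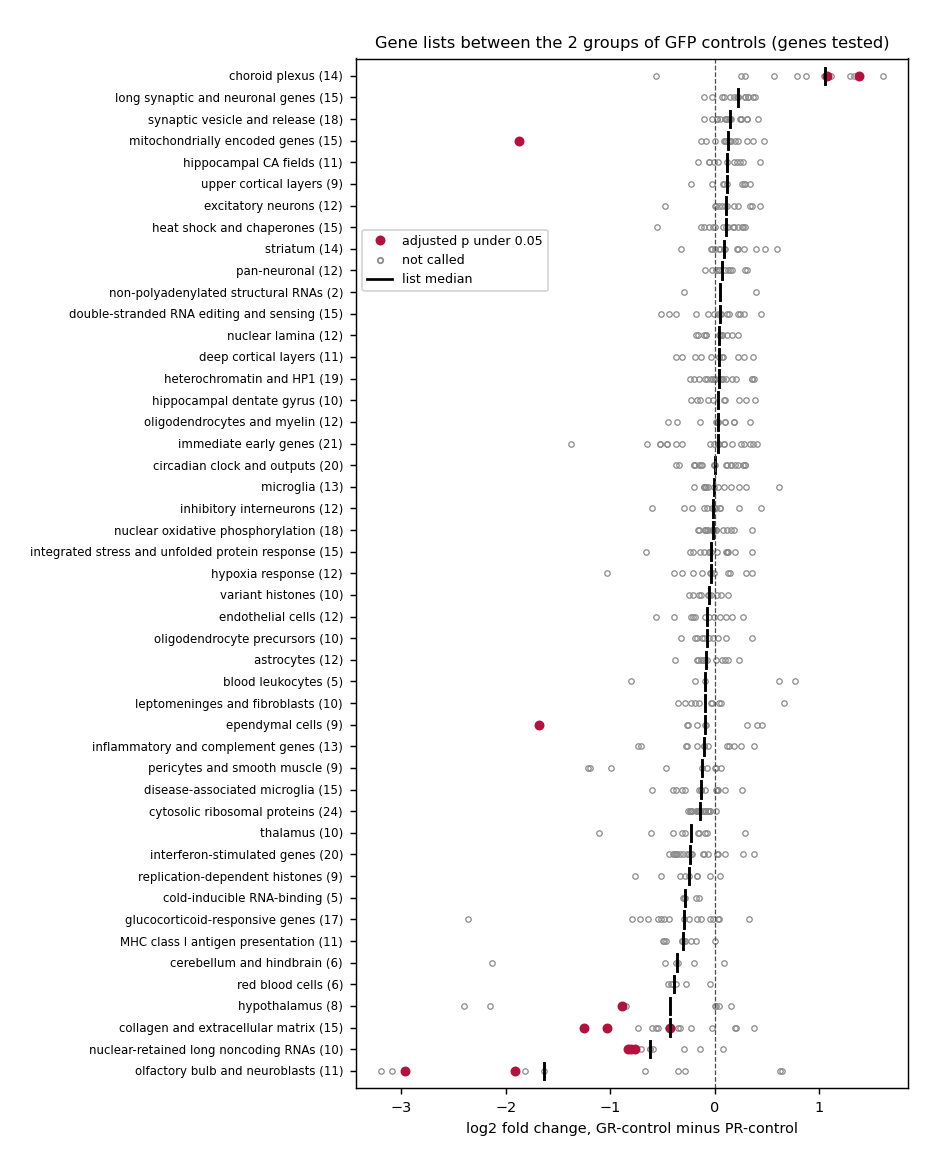
Log2 fold change (GR-control minus PR-control) of every tested gene in 47 gene lists, with the number tested in brackets, genes called at adjusted p under 0.05 in red and a bar at each list's median. Choroid plexus lay highest (median 1.05) and the olfactory bulb list lowest (-1.64).

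Noncoding RNAs that stay in the nucleus were lower in GR-control. Of 10 such RNAs in the list, 3 fell and 9 were below 0, with a median of -0.62 against -0.10 for all 730 lincRNA genes tested. Snhg11, a small nucleolar RNA host gene abundant in neurons, had 1814, 1619, 1790 and 1974 CPM in PR-control and 888, 1004, 1203 and 1306 CPM in GR-control. The 2 groups were apart, and Snhg11 was 1.70-fold lower (log2 fold change -0.76, SE 0.13, adjusted p = 0.0397). Kcnq1ot1, the antisense RNA that silences an imprinted cluster on chromosome 7, fell by 0.83 (SE 0.13), and Mirg, a microRNA-bearing RNA of the imprinted Dlk1 domain on chromosome 12, by 0.80 (SE 0.13). Meg3, of the same domain, had 3532, 3194, 3162 and 3221 CPM in PR-control and 1854, 1933, 2530 and 2764 CPM in GR-control without passing the threshold (-0.62, adjusted p = 0.0513). Malat1, a speckle-associated RNA, likewise did not pass (-0.71, adjusted p = 0.0597). In the fit that omitted PR-control replicates 1 and 4, 7 of the 10 were called lower.

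The gene with the smallest adjusted p among named genes was Gt(ROSA)26Sor, the noncoding transcript of the Rosa26 locus that is widely used for transgene insertion. It had 15.5, 13.3, 13.7 and 17.2 CPM in PR-control and 6.95, 6.06, 6.88 and 6.65 CPM in GR-control. The spread within each harvest was small beside the gap, and it was 2.22-fold lower (log2 fold change -1.15, SE 0.11, adjusted p = 0.0190). Ftx, a noncoding RNA of the X-inactivation centre, fell by 1.10 (SE 0.14), from 50.1 ± 11.1 to 22.0 ± 1.73 CPM (SD, n = 4 each), while Xist stood at 0.08 (adjusted p = 0.878). GR-control replicate 2, with the same table layout as the PR-controls, lay with the other GR-controls for both Gt(ROSA)26Sor (6.06 CPM) and Ftx (22.3 CPM). On GRCm38, Gt(ROSA)26Sor (ENSMUSG00000086429) lies on chromosome 6 from 113067428 to 113077333, on the minus strand, and Ftx (ENSMUSG00000086370) on the X chromosome from 103560907 to 103623790.

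Of 568 TEC models tested, 31 fell (5.46%), none rose, and 69.2% were below 0, with a median of -0.23. With PR-control replicates 1 and 4 left out, 85 TEC models were called lower and 5 higher, with a median of -0.36. Among genes with a protein product, 66 of 14946 protein-coding genes fell (0.442%), with a median of 0.00. Of the TEC models, 259 lie inside a protein-coding gene on the same strand, where reads from unspliced transcripts of the host would also count, and 15 of these fell (5.79%; median -0.33). Such reads would count in the same way in the 70 models inside a protein-coding gene of the other strand, since the counts keep no strand. Of those 70, 3 fell (4.29%; median -0.17). Among the 239 not wholly inside a protein-coding gene, 13 fell (5.44%; median -0.18). Noncoding hosts were not searched, and some of these models have one, such as Gm44831 within Snhg14 on the same strand. The 15 models sit in 9 host genes, most of them long neuronal genes such as Dlg2, Kcnip4, Pcdh9 and Nrxn3. None of the 9 hosts was called, and their log2 fold changes ran from -0.17 to 0.48, against -4.28 to -1.52 for the models inside them. These models were picked because they were called lower and the hosts were not picked by their values. The size of the contrast therefore follows in part from that choice.

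Gm44677, inside Dlg2, had the largest change of all called genes. It had 5.02, 1.32, 1.48 and 10.5 CPM in PR-control and 0.0727, 0.210, 0.175 and 0.176 CPM in GR-control (log2 fold change -4.28, SE 0.77, adjusted p = 0.0477). PR-control replicates 1 and 4 were highest, and the other PR-controls were still above every GR-control. Dlg2, the postsynaptic scaffold PSD-93, had 312, 410, 441 and 319 CPM in PR-control and 433 to 441 CPM in GR-control, with replicates 1 and 4 lowest (log2 fold change 0.22, SE 0.12, adjusted p = 0.332). Reads that fell on no gene made up 9.97% to 11.1% of reads in the PR-controls and 8.73% in the GR-control library that reports them. The part that unspliced RNA has in these differences was not tested.

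**Figure D3:**
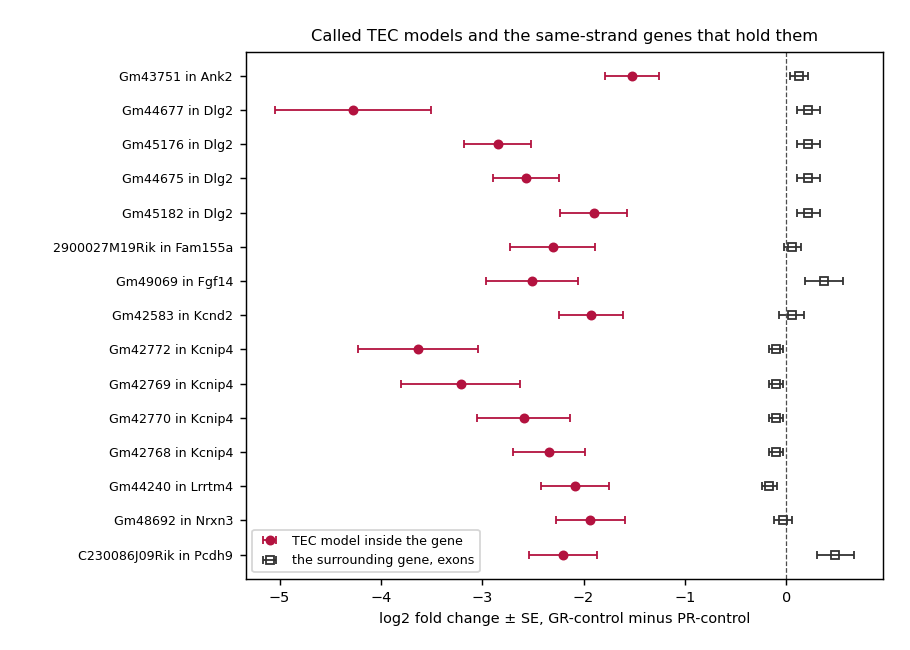
Log2 fold change ± SE (GR-control minus PR-control) of the 15 called TEC models that lie inside a protein-coding gene of the same strand (red circles) and of that host gene over its exons (open squares). All models lay at -1.52 or lower, while the 9 hosts lay between -0.17 and 0.48. The models were picked as called lower, and the hosts were not picked by their values.

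Calls also gathered in a pair of imprinted domains, chosen after the called genes were seen. On chromosome 7, the stretch from 59223847 to 62420139 (GRCm38), which runs from 9330162G02Rik over Ube3a and the paternally expressed Snhg14 and Snrpn to Mkrn3, held 26 tested genes. Of these 7 fell, all TEC models or lincRNAs, 21 were below 0, and the median was -0.48. In the fit that omitted PR-control replicates 1 and 4, 13 of the 26 were called lower. None of its 6 protein-coding genes passed: Ube3a, the ubiquitin ligase gene of Angelman syndrome, stood at -0.13 (adjusted p = 0.724) and Snrpn at 0.03 (adjusted p = 0.835). Gm44562, which lies within Ube3a on the opposite strand, the strand of Snhg14, had 5.32, 2.44, 2.24 and 5.63 CPM in PR-control and 0.691, 0.919, 0.394 and 0.498 CPM in GR-control. It fell by 2.44 (SE 0.32, adjusted p = 0.0249), and no library of one harvest reached the other's range, while Snhg14 itself stood at -0.59 (adjusted p = 0.136). On chromosome 12, from 109452823 to 109749460, 3 of 16 genes between Dlk1 and Mirg fell, Gm37899 (-1.57), B830012L14Rik (-1.65) and Mirg, and the median was -0.40, and 6 were called lower without those libraries.

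Of 33 microRNA genes tested, 2 fell, Mir703 and Mir1898, and the median was -0.36. The counts are reads over the annotated hairpin locus and do not measure the mature microRNA. RefSeq places the mature forms at chr5:98475616-98475636 (minus strand) and chr15:12171502-12171523 (plus strand) on GRCm38.p6. The sequences are shown 5' to 3' because they identify the called loci, with the seed, bases 2 to 8, in capitals, and the seeds differ from each other.
mmu-miR-703: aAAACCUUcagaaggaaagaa
mmu-miR-1898: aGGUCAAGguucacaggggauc
Mir703 lies within Cfap299 on the opposite strand and had 2.77, 1.94, 1.48 and 2.57 CPM in PR-control and 0.109, 0.289, 0.350 and 0.381 CPM in GR-control (log2 fold change -2.93, SE 0.34, adjusted p = 0.0249). Mir1898 lies within Zfr, an RNA-binding zinc finger gene, on the same strand, and had 0.554, 1.07, 0.725 and 0.883 CPM in PR-control and 0.218, 0.315, 0.285 and 0.410 CPM in GR-control (-1.50, SE 0.27, adjusted p = 0.0477). Both loci were separate between harvests, and Zfr stood at 0.07 (SE 0.13, adjusted p = 0.793).

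The study's subject is heterochromatin and double-stranded RNA, and the genes of both were measured in these controls. None of 19 heterochromatin and HP1 genes passed, with a median of 0.04, and neither did any of 12 nuclear lamina genes (0.04) or 15 genes of double-stranded RNA editing and sensing (0.05). Of all genes tested only 0.724% passed, so no call is the usual outcome for lists of this size. With PR-control replicates 1 and 4 left out, 1 of the double-stranded RNA genes was called lower and none of the other lists' genes passed. Among all 18787 genes tested in that fit, 1697 were called. Cbx5, which encodes HP1-alpha, had 194, 251, 260 and 178 CPM in PR-control and 299, 284, 268 and 290 CPM in GR-control. Every GR-control was above every PR-control, and the 2 lowest were PR-control replicates 1 and 4, but the difference did not pass (log2 fold change 0.35, 95% interval 0.07 to 0.64, adjusted p = 0.189). Adar, the main RNA editing enzyme, stood at 0.24 (95% interval 0.05 to 0.44, adjusted p = 0.186), and Cbx1 and Cbx3, the other HP1 genes, at 0.07 and 0.08. The lamin gene Lmnb1 had an interval from -0.02 to 0.45 and C9orf72 from 0.01 to 0.49.

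Glia and stress programs gave no calls with all 8 libraries, but several did without PR-control replicates 1 and 4. None of 12 astrocyte, 13 microglia, 12 oligodendrocyte or 12 excitatory neuron markers passed, with medians of -0.09, -0.01, 0.03 and 0.11. With 0.724% of all genes tested passing, lists of this size would mostly hold no call. Without those libraries 3 microglia and 4 oligodendrocyte markers were called higher and 1 astrocyte and 1 excitatory neuron marker lower, and the astrocyte median turned to 0.09. In that fit 1697 of all 18787 genes tested were called (601 higher, 1096 lower). Gfap, the astrocyte intermediate filament, had 289, 176, 206 and 257 CPM in PR-control and 194, 170, 240 and 218 CPM in GR-control, with overlapping ranges (-0.17, 95% interval -0.57 to 0.22). C4b, a complement gene with a near-identical neighbour in C4a, had 35.4 to 57.1 CPM in PR-control and 22.3 to 34.4 CPM in GR-control and did not pass (-0.73, adjusted p = 0.117). Of 21 immediate early genes and 20 clock genes none passed (medians 0.03 and 0.00), with Fos at 15.8 to 55.2 CPM over the 8 libraries and Per1 at 87.4 to 113 CPM. In the fit that omitted PR-control replicates 1 and 4, 5 immediate early genes were called higher and 2 lower, and 2 clock genes higher and 3 lower. Among 17 glucocorticoid-responsive genes none passed, with a median of -0.29, and Plin4, a lipid droplet protein gene, was lowest at -2.36 (adjusted p = 0.0505). With PR-control replicates 1 and 4 left out, 8 of those 17 were called lower and none higher. Cytosolic ribosomal protein genes gave no call among 24, and their median of -0.14 turned to 0.09, with 1 gene called higher, without those 2 libraries.

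Some genes varied widely between libraries of the same harvest. After the sex genes Xist and Ddx3y, the widest spread belonged to Avp, which encodes the hypothalamic hormone vasopressin and had 34.8, 9.52, 5.20 and 6.95 CPM in PR-control and 1.85, 0.420, 5.30 and 10.7 CPM in GR-control. Oxt, the oxytocin gene next to it, was likewise highest in PR-control replicate 1, at 18.2 CPM against 0.218 to 7.08 CPM elsewhere. Prkcd, a kinase gene marking thalamic neurons, ran from 8.01 to 82.4 CPM within GR-control. Gabrb2, a GABA-A receptor subunit, had 24.9, 116, 113 and 17.1 CPM in PR-control and 129 to 160 CPM in GR-control, and Lnpep, an aminopeptidase, had 10.8, 43.3, 45.4 and 6.92 CPM in PR-control and 44.2 to 60.5 CPM in GR-control. In both of these PR-control replicates 1 and 4 were far below every other library. The sex coefficient of the same fit called 3 genes (0.0166%): Xist, Ddx3y and Mid1, an X-linked ubiquitin ligase gene that was lower in males by a log2 value of -2.55 (SE 0.29, adjusted p = 0.0414), and 960 genes had an unadjusted p under 0.05.

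Repeat subfamilies were compared per effective gene read, a scale on which all repeats can move together. Of 962 subfamilies tested, 438 (45.5%) passed, 430 lower in GR-control (44.7%) and 8 higher (0.832%), and the median log2 fold change was -0.26. Scaled on the repeat counts themselves, which removes that common shift, 106 of 961 passed (11%), 58 lower (6.04%) and 48 higher (4.99%), with a median of -0.02. Reads on repeats outside the ribosomal RNA class came to 19.9, 18.7, 20.2 and 19.9 per 100 gene reads in PR-control and 16.4, 16.5, 15.3 and 16.7 in GR-control. The harvests did not overlap here (exact permutation test over samples, two-sided p = 0.0286, the smallest that 4 against 4 allows, adjusted p = 0.0629 over 11 shares of reads). The shares of lincRNA and TEC genes among gene reads had the same p, at 1.10 ± 0.0936% against 0.886 ± 0.0381% and 0.137 ± 0.00734% against 0.104 ± 0.00512% (SD, n = 4 each). Mitochondrially encoded genes took 4.48 ± 0.918% and 4.59 ± 0.280% of gene reads (exact permutation p = 0.743).

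LINE elements are retrotransposons that encode their own reverse transcriptase, and young L1 families can still move in the mouse genome. On the CPM scale, with effective gene reads as the total, LINE elements stood at 46912, 41105, 45892 and 50442 in PR-control and 39261, 38162, 32452 and 35813 in GR-control. No value overlapped, and the ratio of means on the log2 scale was 0.790 (exact permutation p = 0.0286, adjusted p = 0.0743 over 13 classes). SINE elements, short elements copied by L1 proteins, went from 93507 ± 3712 to 82228 ± 2766, and LTR elements, relics of endogenous retroviruses, from 39945 ± 1501 to 34027 ± 1424 (SD, n = 4 each). DNA transposons and the class named Other also had p = 0.0286, and the other 8 classes had exact p of 0.171 or more. As shares of repeat reads outside ribosomal RNA, LINE did not pass (exact permutation p = 0.143). Satellite repeats stood at 2514 ± 262 and 2740.0 ± 102 per gene read (exact permutation p = 0.200). On the share scale Satellite was higher in GR-control by 0.36 in log2 and tRNA by 0.21, each with an exact permutation p of 0.0286 (adjusted p = 0.149 over 13 classes).

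**Figure D4:**
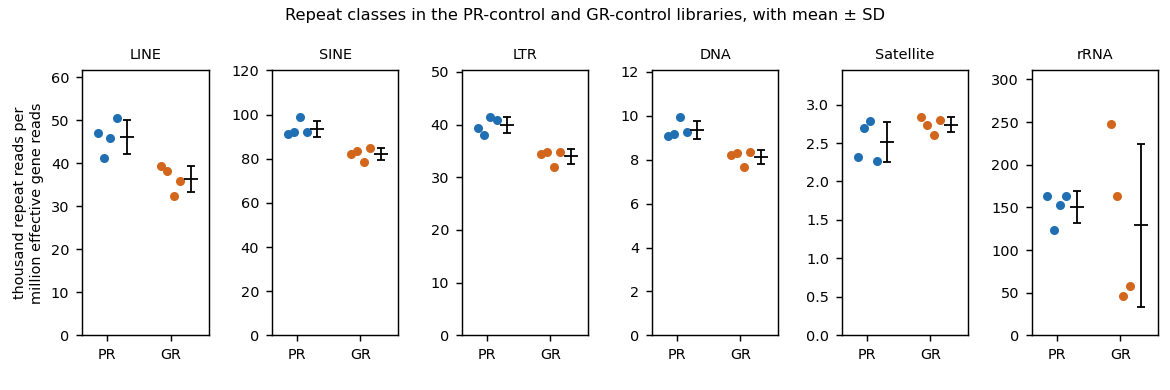
Reads of 6 repeat classes in each library, scaled to effective gene reads (blue PR-control, orange GR-control), with the mean ± SD of each group of 4. LINE, SINE, LTR and DNA reads were lower in every GR-control than in any PR-control, whereas ribosomal RNA varied widely within GR-control.

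Within LINE, 93 of 116 L1 subfamilies (80.2%) fell, with a median of -0.41 against -0.23 for the 846 subfamilies outside L1, of which 337 fell (39.8%). Scaled on repeat counts, 38 L1 subfamilies were called lower and 2 higher, with a median of -0.17. In the L1_Mus, L1_Mur, L1VL and Lx groups 28 of 29 fell, and in the mouse-specific L1Md group 4 of 6 fell. The most abundant LINE subfamily, L1Md_F2, had 3824 ± 841 and 2859.9 ± 867 CPM (log2 fold change -0.29, SE 0.11, adjusted p = 0.0430), close to the median of all repeats. RLTR18-int, an internal part of an ERVK provirus, had the smallest adjusted p of the most changed subfamilies. It had 1437, 1009, 1103 and 1654 CPM in PR-control and 478, 557, 690 and 731 in GR-control. The groups were far apart, and it fell by 1.11 (SE 0.17, adjusted p = 8.19e-04), and by 0.88 when scaled on repeats (adjusted p = 0.0266).

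The 8 subfamilies called higher were RLTR50A, MER66-int, RLTR45-int, LTR81, RLTR31C_MM and MamGyp-int of the LTR class, the spliceosomal small nuclear RNA U1 and 7SLRNA. U1 had 16.4, 11.9, 14.6 and 24.2 CPM in PR-control and 34.5, 27.1, 18.3 and 25.5 in GR-control (log2 fold change 0.79, SE 0.16, adjusted p = 0.00326). MMSAT4, the most abundant satellite, stood at 0.15 per gene read (adjusted p = 0.166) and at 0.39 scaled on repeats (adjusted p = 0.0196). Ribosomal RNA took 46.1%, 40.0%, 43.3% and 45.3% of repeat reads in PR-control and 59.5%, 49.1%, 22.9% and 25.4% in GR-control. The female GR-controls were thus above and the male GR-controls below all PR-controls. With that share as a covariate none of the 18086 genes passed in edgeR's quasi-likelihood test, with 3376 at an unadjusted p under 0.05.

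The mice that expressed a repeat protein provide libraries that the control comparison did not use, collected in the same pair of harvests. GR100 was compared with PR50 by the same test, and 7459 of 19309 genes passed (38.6%; 3435 lower, 17.8%, and 4024 higher, 20.8%). All 131 genes called between the controls had the same direction there, and 123 of them passed, while 80.1% of the 18021 genes tested in both comparisons shared their direction. The median over the 123 genes lower in GR-control was -0.94 between the controls and -0.84 between the repeat-expressing mice. Repeat protein and harvest cannot be told apart in the second comparison, since each repeat protein was studied in a single harvest.

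Gt(ROSA)26Sor, scaled over all 19 libraries, ran from 14.4 to 16.5 CPM in the 7 PR50 mice (median 15.4) and stood at 6.96, 6.28, 6.32 and 7.07 CPM in the GR100 mice. The PR50 mice were close to the PR-controls and the GR100 mice to the GR-controls, with no overlap between harvests (log2 fold change -1.23, SE 0.08, adjusted p = 1.98e-05). Shank3 ran from 98.3 to 142 CPM in PR50 (median 126) and stood at 176, 196, 185 and 204 CPM in GR100 (0.60, SE 0.09, adjusted p = 0.00178). Doc2g behaved alike, at 9.01 to 36.4 CPM in PR50 and 1.76 to 6.68 CPM in GR100 (-2.38, SE 0.46). The choroid plexus genes did not: Ttr ran from 0.977 to 494 CPM in PR50 and from 1.21 to 112 CPM in GR100, a full overlap, with a log2 fold change of 0.70 (SE 1.33, adjusted p = 0.693). Kl stood at 0.57 (SE 0.31, adjusted p = 0.162). The other 6 genes not called between repeat-expressing mice were Rreb1, G530011O06Rik, Leng8, Mir124a-1hg, Col23a1 and Castor1, with log2 fold changes from -0.42 to -0.08.

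**Figure D5:**
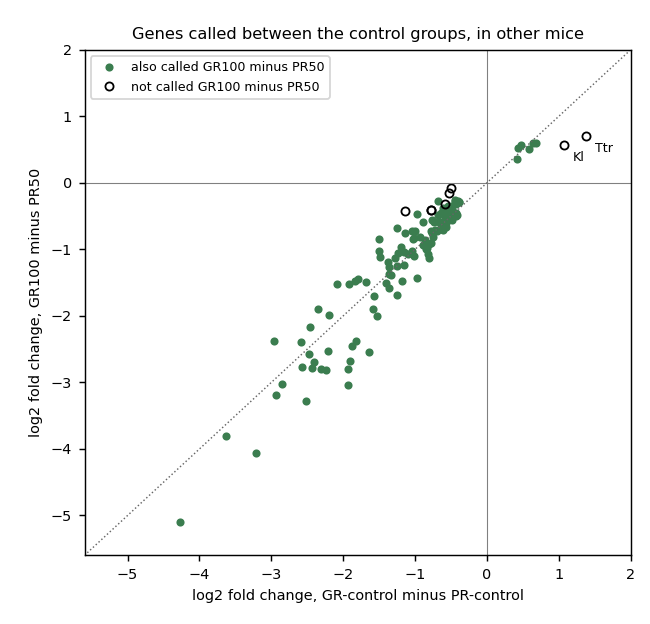
Log2 fold change of the 131 genes called between the control harvests (horizontal axis, GR-control minus PR-control) against their log2 fold change between repeat-expressing mice of the same harvests (vertical axis, GR100 minus PR50), with filled points for the 123 genes that passed in both. All points lie in the lower left or upper right quadrant, and Ttr and Kl are among the 8 open points.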

How the data were processed

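RNA was sequenced from hippocampus and cortex homogenate; the labels name a stranded total RNA kit but give the molecule as polyA RNA. The submitters' processing notes name STAR 2.5.2b, Trimmomatic 0.36 and, without roles, builds mm9 and mm10. The authors' annotation release and repeat counter: not given in the sources used here. Deposited tables hold raw read counts per gene and per repeat subfamily, made by the authors before any normalization. The unstranded gene column was used: among libraries that report both strands the first strand took 49.9% to 50.1% of reads, so overlapping and antisense genes cannot be told apart. Lines that name no gene were left out of library sizes, and unassigned reads on no gene came to 8.73% to 11.1% in the 5 libraries that report them.

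Genes passing edgeR's filterByExpr were fitted in edgeR 4.0.16 (R 4.3.3, limma 3.58.1) with TMM scaling, sex as a covariate and the quasi-likelihood test, with p-values adjusted by Benjamini-Hochberg over all features tested. Repeat counts were fitted with the gene-based effective library sizes. Differences are GR-control minus PR-control. TPM used the union of exons, and biotypes, positions and shared exons came from the GENCODE M21 annotation of GRCm38, in which 53706 of 53801 gene IDs had an entry. Classes and shares were compared by exact two-sided permutation over samples. The scripts were tested on simulated data. No pair of libraries was a duplicate.

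Genes named are, by rule, up to 12 per direction with the largest change among those called with a mean log2 CPM of at least 1, up to 12 with the smallest adjusted p, up to 4 called per gene list of 48, the 15 most abundant per length, the 10 with the widest spread within harvests among genes whose mean log2 CPM reached 3, and a fixed set of markers. Up to 10 repeat subfamilies per direction and the most abundant of each class were named. Other names, the gene families and the chromosome regions were chosen after their values were seen. Members and lists were chosen with earlier results of these data known. Alternatives were DESeq2 1.42.0, other scalings, filters, covariates and left-out libraries.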

Additional observations from a re-analysis of the deposited data

Results flagged for a closer look

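In 21 of 358 groups of 4 libraries (5.87%), 1 library lay far from the other 3 for its group's range, by Dixon's criterion at the 95% level, which chance alone meets in about 1 in 20 groups. PR-control replicate 1 was such a library 5 times. It was highest for the hypothalamic hormones Avp (34.8 CPM, others 5.20 to 9.52) and Oxt (18.2 CPM, others 1.12 to 3.20) and for Meg3 (3532 CPM, others 3162 to 3221). It was lowest for the bulb factor Tbx21 (0.326 CPM, others 2.96 to 3.35) and for Dnah11 (1.63 CPM, others 4.07 to 4.56). PR-control replicate 2, the male of its group, was highest for Ddx3y (67.0 CPM) and also for Jchain (7.24 CPM, others 2.15 to 2.54), and lowest for the repeat class Other (525 CPM on effective gene reads). PR-control replicate 3 was highest for Kl (7.31 CPM), Srek1 (94.9 CPM) and the SINE class (99037 CPM). PR-control replicate 4 was highest for Ikzf5 (3.94 CPM), Gm25911 (37.2 CPM) and Prpf38b (83.4 CPM).

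Among the GR-controls, replicate 1 was highest for the tight junction gene Cldn2 (2.40 CPM, others 1.14 to 1.32), and replicate 2 was lowest for Slc39a2 (2.76 CPM). Replicate 3 was lowest for Tra2a (65.9 CPM), for the share of mitochondrially encoded genes (4.18% of gene reads) and for the LTR class (31909 CPM). Replicate 4 was highest for Ikzf5 (2.05 CPM) and Tia1 (94.9 CPM).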

How the results depend on the processing

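All 131 called genes kept their direction in each of 18 alternatives. These reuse libraries that chose the genes, so the kept direction is no independent support. The number of called genes moved. It was 910 with DESeq2 (276 higher, 634 lower), 699 with all libraries in 1 fit, 2089 without the filter, 440 without sex, 8 for a change beyond 1.2-fold and 1697 without PR-control replicates 1 and 4, an alternative chosen after seeing the data. In edgeR's quasi-likelihood test it was 0 with 4-column tables only (1023 at an unadjusted p under 0.05), 0 in females only (2887) and 0 with the rRNA share as a covariate (3376). With 1 library left out it ran from 0 to 1665: 0 without GR-control replicates 1, 3 or 4 or PR-control replicate 2, 1 without GR-control 2, 119 and 125 without PR-control 4 and 1, and 1665 without PR-control 3. Called repeat subfamilies numbered 106 scaled on repeats, where the share called higher went from 1.83% to 45.3%, 123 scaled on repeats without rRNA, 239 with all libraries, and 196 to 443 with 1 library left out. Calls between repeat-expressing mice ran from 4642 to 9577 with 1 library left out. Genes near 0 changed sign. Without PR-control replicates 1 and 4, log2 fold changes were 0.20 for mt-Rnr1, 0.12 for mt-Rnr2, -0.22 for Xist, 0.067 for Prkcd, -0.24 for Gm38020, -0.27 for ENSMUSG00000109836, -0.014 for Cbx1, -0.065 for Cbx3, 0.097 for Gfap, 0.011 for Aif1 and -0.13 for Zfr. With 4-column tables only they were 0.18 for CT010467.1, -0.044 for mt-Nd4, 0.10 for Sgk1 and 0.055 for Ube3a, and in females only 0.55 for CT010467.1, 0.11 for Sgk1 and 0.083 for Ube3a. Without sex they were -0.27 for Xist, 0.52 for Ddx3y and 0.14 for Prkcd. CT010467.1 stood at 0.0041 with the rRNA covariate and Snrpn at -0.0054 with upper-quartile scaling. With 1 library left out, values that crossed 0 ran from -0.0093 to 0.44 for Gm23935, -0.52 to 0.55 for CT010467.1, -0.24 to 0.056 for mt-Rnr1, -0.27 to 0.00045 for mt-Rnr2, -0.0020 to 0.21 for mt-Nd4, -0.037 to 0.33 for Xist, -0.88 to 0.19 for Prkcd, -0.0082 to 0.81 for Gm25911, -0.40 to 0.11 for Sgk1, -0.25 to 0.081 for Ube3a and -0.58 to 0.50 for SSU-rRNA_Hsa. Scaled on repeats, with and without rRNA, ID_B1 stood at 0.099 and 0.098, BC1_Mm at 0.16 in both, tRNA-Ala-GCY_ at 0.13 in both, 7SK at 0.025 and 0.024, and URR1A, called lower per gene read, at 0.020 and 0.019. SSU-rRNA_Hsa stood at 0.014 with rRNA in the scaling. The cause of these shifts was not tested. With 1 library left out, the exact permutation test had 3 to 6 of 13 repeat classes and 3 to 5 of 11 shares at an unadjusted p under 0.05. After adjustment it had 0, as with all libraries. The smallest p that this test can give, 0.0286, cannot pass the adjustment at such counts, so that 0 says nothing of stability. No paired analysis was possible because the labels give the groups no shared replicate numbers, and the numbers used here follow accession order.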
